A study of Danio rerio with 8 samples.

Results

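Blood clotting depends on proteins that the hepatocytes of the liver make and secrete, and the transcripts of 10 zebrafish genes of this kind were followed here on liver arrays from fish given oligo-fucoidan (OF), a small-fragment preparation of the sulfated brown-seaweed polysaccharide fucoidan. The genes were f2, f5, f7, f7i, f9b, f10, prozb, fga, fgb and fgg. They were taken by their symbol in the annotation deposited with the arrays, and where a gene had more than 1 cluster of probes the one with the highest mean over the 8 arrays was used. All 10 symbols were found, among 22653 genes with a single symbol and 59300 clusters tested.

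The OF group was adult wild-type fish of the AB strain given 300 mg/kg OF by oral gavage 3 times a week for 1 month, and the control group was mock fish of the same strain that had no treatment. The fish were 5 months old at the start, and the label of every array gives 6 months. The experiment was run as 2 batches, each with 2 OF and 2 control arrays of whole liver, and each batch mean is described as the average of 2 fish, which would make an array 1 fish. The labels do not give the sex of the fish. Because the tissue is whole liver, fewer hepatocytes and less RNA per hepatocyte cannot be told apart.

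Clotting ends when thrombin cuts fibrinogen, a protein built of α, β and γ chains encoded by fga, fgb and fgg, into fibrin. Thrombin is the active form of prothrombin (f2), which activated factor X (f10) cleaves with factor V (f5) as its cofactor. Factor X is itself activated by factor VII (f7) with tissue factor or by factor IX (f9b is one of a pair of zebrafish copies). f7i encodes a factor VII relative described in zebrafish as an inhibitor of clotting, and prozb encodes a protein Z, the cofactor with which a serpin inhibits activated factor X in mammals. Prothrombin, factors VII, IX and X and protein Z are vitamin K-dependent: the liver adds carboxyl groups to their glutamates before they are secreted. In mammals, fibrinogen is also an acute phase protein that the liver makes in larger amounts during inflammation.

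No clotting gene passed the test of OF against control over both batches, whereas in each batch taken alone all 10 means lay on the same side. In batch 1 every one was lower in OF livers, by 0.17 (fga) to 0.80 (f7) on the log2 scale, and in batch 2 every one was higher in OF livers, by 0.15 (fgb) to 1.45 (prozb). None of these within-batch differences passed the methods' thresholds of a fold above 2 and an unadjusted p under 0.05. The same thresholds were passed by 3.47% of all clusters in the lower direction in batch 1 and by 2.55% in the higher direction in batch 2. As to sign alone, 46.2% of all clusters had the higher mean with OF in batch 1 and 53.5% had it in batch 2.

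All values below are log2 signals, so that a step of 1 is a doubling, and signals of different genes come from different probes and are not set against each other. The arrays of batch 1 had median signals of 2.11 to 2.13 over all clusters and those of batch 2 of 2.54 to 2.63. Clusters above 5 made up 15.6% to 17.0% of each batch 1 array, and 23.4% to 24.6% of each batch 2 array. Replicates of a group correlated across clusters at 0.929 to 0.964. All 12 hepatocyte markers measured had a mean above 5, and their average was at least 11.17 on every array.

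**Figure D1:**
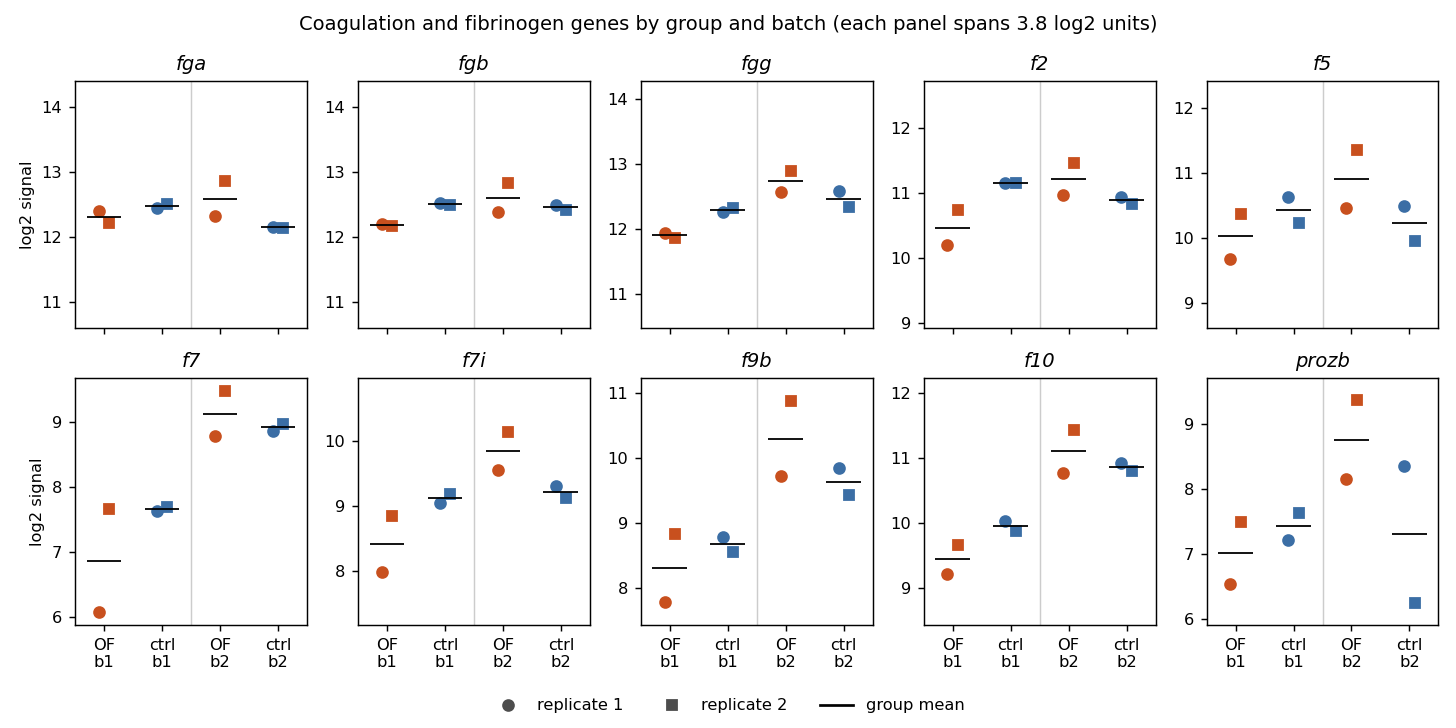
Log2 signal (y axis) of the 10 genes on each array, by group (x axis, b1 and b2 are the batches), with a line at each group mean of 2 arrays and circles and squares for replicates 1 and 2. In batch 1 the OF means lie below the control means in all 10 panels and in batch 2 above them, and the gap between replicates is often as large as the gap between groups.

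By their brightest clusters the fibrinogen chains had ranges over all 8 arrays of 0.66 (fgb) to 1.04 (fgg), and the factors of 1.26 (f2) to 3.41 (f7), although a second fga cluster ranged over 1.30, more than f2. fgg had 11.95 and 11.86 on the OF arrays of batch 1, against 12.26 and 12.33 on the control arrays. In batch 2 it had 12.57 and 12.90 on the OF arrays, against 12.59 and 12.35 on the control arrays. Both OF livers of batch 1 thus stood below both controls, while in batch 2 the groups overlapped. Its mean was lower by 0.39 with OF in batch 1 (SE 0.17, adjusted p = 0.541) and higher by 0.27 in batch 2 (SE 0.24), neither past the thresholds.

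fgb showed the same order in batch 1, with 12.20 and 12.17 in OF livers against 12.53 and 12.49 in controls. On the batch 2 arrays fgb had 12.38 and 12.83 with OF and 12.49 and 12.41 without. The second OF liver was the highest of that batch and the first the lowest. The fgb change was −0.32 in batch 1 (SE 0.16, adjusted p = 0.611) and 0.15 in batch 2 (SE 0.24, adjusted p = 0.920).

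fga read 12.39 and 12.22 in the OF livers of batch 1, against 12.44 and 12.50 in controls. In batch 2 the OF livers had 12.31 and 12.86, against 12.15 and 12.14 in controls. These groups did not overlap in either batch, with OF below in the first and above in the second. In batch 1 the higher OF liver had 12.39 and the lower control 12.44. The OF mean was lower by only 0.17 in batch 1 (SE 0.18, adjusted p = 0.811, limma) and higher by 0.44 in batch 2 (SE 0.26, adjusted p = 0.722, limma). In the deposited annotation the brightest fga cluster lies within the span of the dimmer, longer one on the same strand. The dimmer fga cluster gave −0.39 in batch 1 and 0.24 in batch 2. By that cluster the groups were separate in batch 1 but overlapped in batch 2. There it had 11.95 and 12.22 in OF livers against 11.97 and 11.71 in controls.

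After the mean of each batch was subtracted, the signals of fga, fgb and fgg on any 1 array lay within 0.20 of each other. Those of the 6 vitamin K-dependent genes, a larger set of genes with wider ranges, spread over 0.36 to 1.73. Over both batches the OF change was 0.14 for fga (95% interval −0.31 to 0.58), −0.08 for fgb (−0.46 to 0.29) and −0.06 for fgg (−0.48 to 0.36). A doubling or halving of any chain, as an average over both batches, lay outside the interval. That average joins changes of opposite sign. In batch 2 alone the interval of fga, −0.26 to 1.14, included a doubling, whereas those of fgb and fgg in this fit did not. With dim clusters left out of the fit, the unadjusted p of fgg there was 0.447, against 0.312 (limma). Intervals were not taken under that setting.

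Prothrombin, f2, had the smallest p of the 10 genes in batch 1, although it too missed the threshold. Its signals there were 10.19 and 10.74 in OF livers, against 11.15 and 11.14 in controls. In batch 2 the OF livers had 10.96 and 11.45 and the controls 10.94 and 10.83. Groups did not overlap in either batch, although in batch 2 the lower OF liver exceeded the nearest control by far less than the OF livers differed from each other. The change was −0.68 in batch 1 (SE 0.26, adjusted p = 0.490, limma) and 0.32 in batch 2 (SE 0.25, adjusted p = 0.807). Over both it was −0.18 (95% interval −0.79 to 0.43).

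f10 followed f2 closely. In batch 1 it had 9.22 and 9.66 with OF, against 10.03 and 9.88 without, and in batch 2 it had 10.77 and 11.44 with OF, against 10.92 and 10.80 without. OF lay below control throughout batch 1 and to either side of it in batch 2. Its changes were −0.51 (SE 0.23, adjusted p = 0.560) and 0.24 (SE 0.30, adjusted p = 0.887).

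f7i, the inhibitory relative of factor VII, was the other factor with separate groups in both batches. OF livers of batch 1 had 7.99 and 8.85, against 9.05 and 9.19 in controls. Those of batch 2 had 9.55 and 10.15, against 9.32 and 9.13 in controls. The changes were −0.70 in batch 1 (SE 0.35, adjusted p = 0.603) and 0.63 in batch 2 (SE 0.28, adjusted p = 0.600, limma), where f7i had the smallest p of the 10 genes.

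f7 itself rested on a single array. Its OF livers of batch 1 had 6.07 and 7.66, against 7.63 and 7.69 in controls, so that the first lay far below and the second among the controls. In batch 2 it read 8.78 and 9.48 with OF, against 8.87 and 8.97 without. The batch 1 change of −0.80 (SE 0.59, adjusted p = 0.723) was −0.005 without OF replicate 1 and −1.59 without OF replicate 2.

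f9b and f5, a factor IX and the factor V gene, had overlapping groups in both batches. f9b had 7.78 and 8.83 in the OF livers of batch 1, against 8.79 and 8.55 in controls. In batch 2 its OF livers had 9.72 and 10.87, against 9.85 and 9.42 in controls. The second OF liver of batch 2 was higher than any other array and the first OF liver of batch 1 lower than any other, and the f9b changes were −0.37 (adjusted p = 0.827) and 0.66 (adjusted p = 0.766).

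For f5 the OF signals of batch 1 were 9.68 and 10.38, against 10.63 and 10.24 in controls. In batch 2 they were 10.46 and 11.36, against 10.49 and 9.96. The same pair of OF arrays, replicate 1 of batch 1 and replicate 2 of batch 2, gave the lowest and the highest f5 of the series. The changes were −0.41 (adjusted p = 0.747) and 0.68 (adjusted p = 0.716).

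prozb was the most uneven gene within a group. Its OF livers had 6.54 and 7.50 in batch 1, against 7.22 and 7.64 in controls. In batch 2 the OF livers had 8.16 and 9.37, whereas the controls had 8.36 and 6.25. The 1.45 higher mean with OF in batch 2 (SE 0.84, adjusted p = 0.714) thus turned on control replicate 2, without which it was 0.40. Over both batches the 95% interval of prozb ran from −0.95 to 1.99, the widest of the 10.

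**Figure D2:**
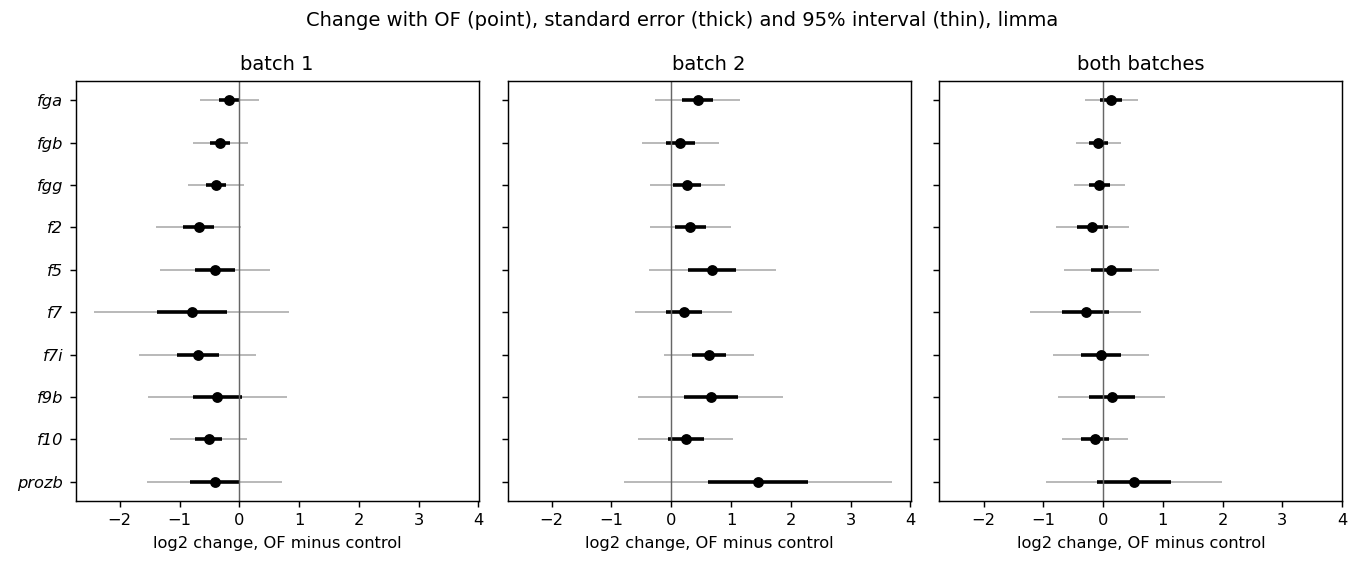
Change with OF as log2 OF minus control (x axis) for each gene (y axis), in batch 1, in batch 2 and over both, with the point at limma's estimate, a thick bar for its standard error and a thin bar for its 95% interval. All 10 points lie left of 0 in batch 1 and right of 0 in batch 2, every thin bar crosses 0, and over both batches the points lie between −0.29 and 0.52.

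Over both batches OF gave the higher mean for 4 of the 10 genes, as it did for 49.6% of all clusters. The changes ran from −0.29 (f7) to 0.52 (prozb), and adjusted p-values were 0.959 to 0.998 (limma). None had an unadjusted p under 0.05 either, a level reached by 4.49% of all clusters. The methods' thresholds called none of the 10 and 1.01% of clusters. At an adjusted p under 0.05 no cluster of the array was called in this comparison, which is 0.0%.

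The difference between the batches in the OF change was then tested as an interaction. It was positive for all 10 genes and 54.1% of all clusters, from 0.47 (fgb) to 1.87 (prozb), with a median of 1.00, and the median over the 11512 clusters with a mean signal above 5 was 0.18. f7i (1.33, SE 0.48, adjusted p = 0.291) and f2 (1.00, SE 0.37, adjusted p = 0.299) reached an unadjusted p under 0.05. Among all clusters 14.3% did so, 7.69% did so with a positive sign, and 12.3% did so with a fold above 2, as f7i and f2 did. No clotting gene passed after adjustment, where their adjusted p-values were 0.291 to 0.616, and 0.00506% of all clusters passed.

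Counts of direction and of separate groups can be read against the same counts over the array. The shares for separate groups are over all clusters, dim ones included, whereas all 10 genes had a mean above 5. A lower mean with OF in batch 1 together with a higher one in batch 2 was found for 10 of the 10 genes, for 32.2% of all clusters and for 37.8% of the clusters above 5. Both OF arrays lay below both controls of batch 1 for f2, f7i, f10, fga, fgb and fgg, which is 6 of 10, against 23.9% of all clusters. In batch 2 both OF arrays lay above both controls for f2, f7i and fga, 3 of 10, against 21.0%. These 3 genes met both conditions, fga by its brightest cluster only, as did 6.62% of all clusters. Some directions rested on 1 array. Without OF replicate 1 of batch 1 the changes of f9b and prozb in that batch were 0.16 and 0.07, and without OF replicate 2 of batch 2 those of f7, f10 and fgb in that batch were −0.14, −0.09 and −0.07. Thresholds were crossed by f7 and f7i in batch 1 without OF replicate 2 (−1.59 and −1.13), by f5 and f9b in batch 2 without OF replicate 1 (1.13 and 1.24) and by prozb there without control replicate 1 (2.51). The 10 genes varied together across arrays, so they do not count as 10 separate observations.

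Within a batch, particular arrays held the extremes. The shares of clusters lowest on an array are over all clusters, dim ones included, whereas all 10 genes had a mean above 5. OF replicate 1 of batch 1 was the lowest array of its batch for f5 and all 6 vitamin K-dependent genes, 7 of 10, while 31.0% of all clusters were lowest there. The fibrinogen chains were instead lowest in OF replicate 2 of that batch, 3 of 3, against 23.8% of all clusters. The margin was small, as the median of the chains from the batch mean was −0.14 on OF replicate 1 and −0.18 on OF replicate 2. OF replicate 2 of batch 2 was the highest of its batch for 10 of 10 genes, with a median of 0.47 above the batch mean, against 27.4% of all clusters and 39.8% of those above 5. Control replicate 2 of batch 2 was the lowest for 7 of 10, against 29.1%. OF replicate 1 of batch 2 lay at −0.24 to 0.12 from the batch mean for every gene.

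Marker lists differed between the same arrays. Estrogen-responsive liver genes (vtg2, vtg3 and vtg6, which encode egg yolk precursors, the estrogen receptor esr1 and the nothepsin gene nots, 5 measured of 9 listed) averaged 9.94 and 11.74 in the OF livers of batch 1, against 2.88 and 2.84 in controls. In batch 2 they averaged 12.50 and 2.84 in OF livers, against 12.56 and 12.62 in controls. In batch 1 the high averages were those of both OF livers, whereas in batch 2 both controls and 1 OF liver had a high average. The array with all 10 clotting genes at their highest was the single one of batch 2 with a low average. Their part in the clotting gene values was not tested, and in batch 1, where both OF livers had the high average and both controls the low one, it and the treatment cannot be told apart.

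Hepatocyte markers lay on the same sides as the clotting genes. Of 12 measured of 13 listed, 11 had a lower mean with OF in batch 1 (median −0.38) and 12 a higher mean in batch 2 (median 0.30), close to the clotting medians of −0.41 and 0.38. Both conditions were met by 11 of the 12, against 37.8% of clusters with a mean above 5. By array the hepatocyte markers averaged 11.17 and 11.27 in OF livers of batch 1 against 11.73 and 11.79 in controls, and 11.71 and 12.62 in OF livers of batch 2 against 11.56 and 11.79 in controls. serpina1, a protease inhibitor, had the widest range of these markers, and in an alternative chosen after seeing the data the averages without it were 11.80 and 11.76 in OF livers of batch 1 against 12.19 and 12.29 in controls, and 12.28 and 12.69 in OF livers of batch 2 against 12.14 and 11.91 in controls. apoa2, an apolipoprotein, differed by −0.54 and 0.70 in the 2 batches and fabp10a, the liver fatty acid binding protein, by −0.35 and 0.24, both picked after their values were seen. rbp4 was the marker with a higher mean with OF in batch 1, by 0.21, and gave 0.05 in batch 2. The part of the hepatocyte markers was not tested.

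Markers of blood and other cells differed as well. Erythrocyte markers, 12 measured of 14, averaged 2.54 and 2.30 in OF livers of batch 1 against 4.44 and 3.53 in controls. In batch 2 they averaged 4.02 and 5.12 in OF livers against 3.58 and 3.48 in controls. Of them 6 passed the methods' thresholds as lower in batch 1, against 3.47% of all clusters. As higher in batch 2, 6 passed, against 2.55% of all clusters. Of these 12 markers, 11 had a mean below 5. Thrombocyte markers, the fish counterpart of platelet genes, averaged between 2.25 and 3.57 on every array, and 10 of 11 had a mean below 5. They too lay on the sides of the clotting genes. In batch 1, 11 of 11 were lower (median −0.39), and in batch 2, 9 were higher (median 0.20). So did endothelial markers, with 8 of 10 lower (median −0.45) and 9 higher (median 0.44), although 6 of the 10 had a mean below 5. Stellate and fibroblast markers had 8 of 8 lower and 6 higher, and macrophage markers 5 of 9 lower and 6 higher. Neutrophil markers went the other way in batch 1, with 5 of 5 higher (median 1.06). In batch 2 they were mixed, with 2 higher and 3 lower (median −0.15). Biliary markers were mixed in batch 1, with 4 higher and 3 lower (median 0.51), and went the other way in batch 2, with 6 of 7 lower (median −0.285). Of all clusters 46.2% were higher in batch 1 and 53.5% in batch 2. All 8 stellate and all 5 neutrophil markers had a mean below 5. Exocrine pancreas markers, 10 of 13 measured, averaged 2.50 and 6.15 in OF livers of batch 1 against 5.77 and 7.72 in controls, and 7.30 and 6.84 in OF livers of batch 2 against 7.30 and 7.21 in controls. Ovary and oocyte markers, 9 of 9 measured, averaged 7.94 and 5.40 in OF livers of batch 1 against 1.72 and 1.95 in controls. In batch 2 they averaged 3.38 and 1.65 in OF livers against 2.68 and 3.40 in controls, and 8 of the 9 had a mean over the arrays below 5. The part of these cells in the clotting gene values was not tested.

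**Figure D3:**
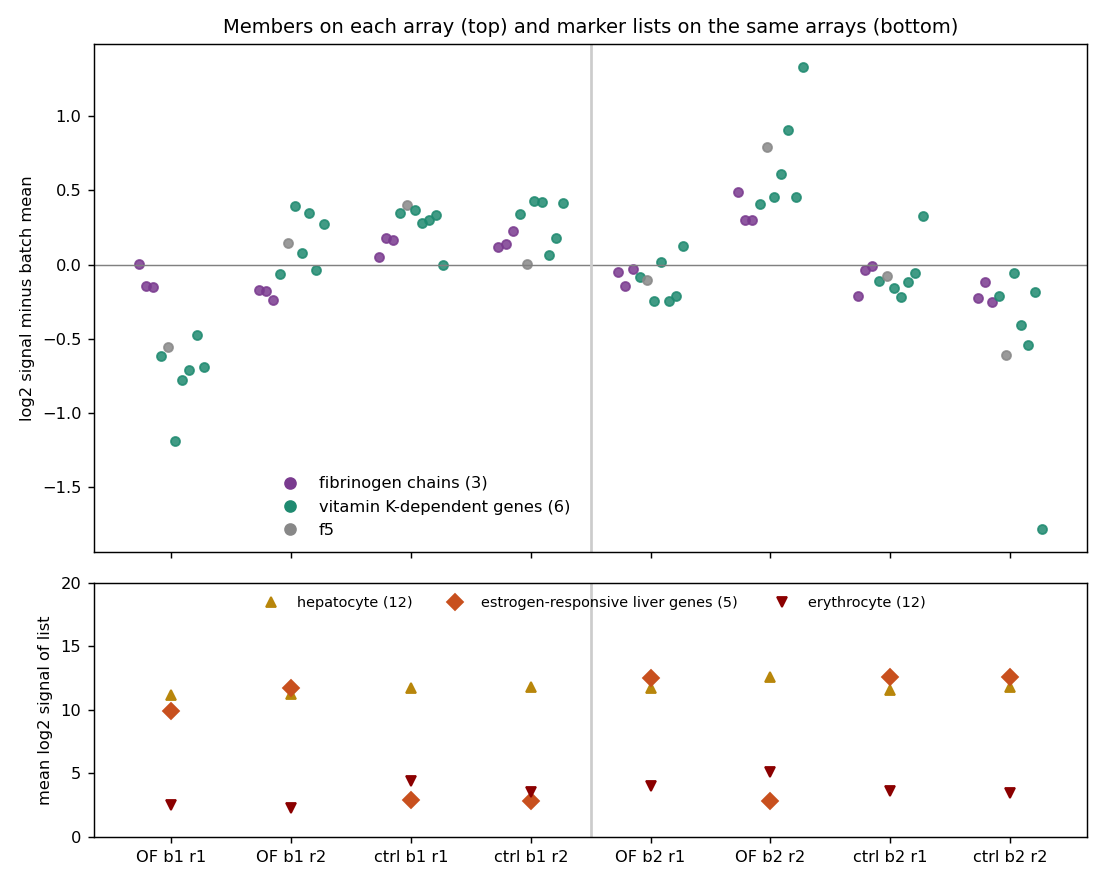
Top: log2 signal minus the mean of the batch (y axis) for each of the 10 genes on each array (x axis, b batch, r replicate). Bottom: mean log2 signal of 3 marker lists on the same arrays. OF replicate 2 of batch 2 has all 10 genes above the batch mean by 0.30 to 1.33 and an estrogen-responsive average of 2.84, while OF replicate 1 of batch 1 has the factors below it and the fibrinogen chains near it.

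The 10 genes varied together. After subtraction of the batch means, Pearson's r over the 8 arrays was between 0.30 (f7 with fga) and 0.97 (f5 with f9b) for the 45 pairs, with a median of 0.80. Medians were 0.86 for the 21 pairs of factors and 0.82 for the 3 pairs of fibrinogen chains. For the 21 pairs of a factor with a chain the median was 0.71. The points of these correlations share their arrays and their normalization, so they are given as a description.

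The closest pair, f5 with f9b, lies on different chromosomes. In the RefSeq gene table of assembly GRCz12tu, f7l, f7, f7i, f10 and prozb are neighbours in that order on chromosome 1, fgb and fga lie on either side of a single unnamed locus elsewhere on that chromosome, and fgg lies elsewhere on it. f9b is on chromosome 10, f2 on chromosome 7 and f5 on chromosome 9. The 6 pairs within f7, f7i, f10 and prozb had a median r of 0.81, and the other 15 pairs of factors had 0.88. In the deposited annotation the f7i cluster spans those of f10 and prozb on the same strand, so its probes may not all belong to f7i.

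**Figure D4:**
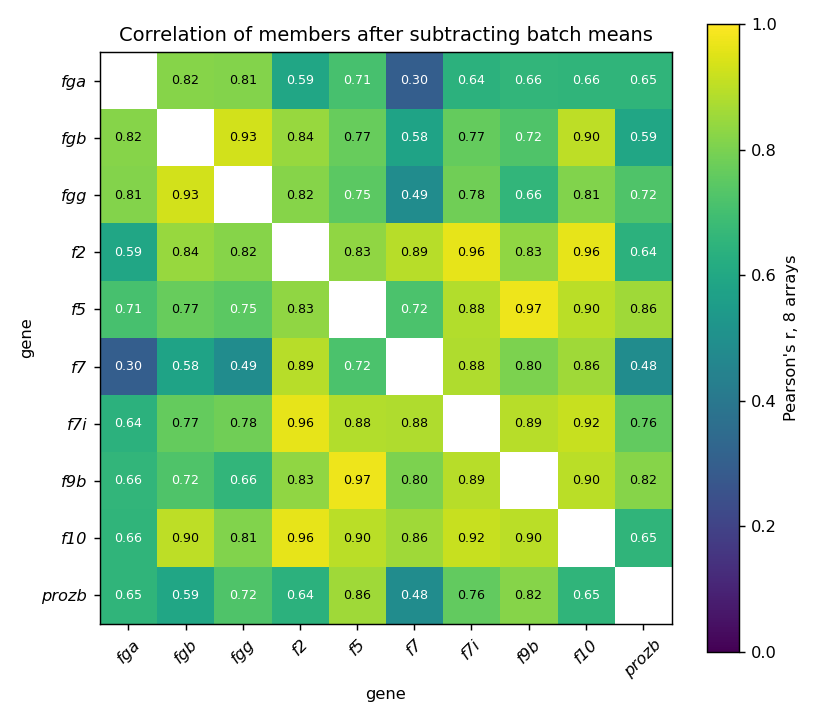
Pearson's r between each pair of the 10 genes (both axes) over the 8 arrays after subtracting batch means, by colour from 0 to 1. The highest values are those of f5 with f9b at 0.97 and of f2 with f7i and f10 at 0.96, and the lowest is that of f7 with fga at 0.30.

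Among 6780 other genes with a mean above 5, those most like the mean of the fibrinogen chains were amdhd2 (r = 0.987, 8 arrays), znf827, sod1, slc3a2a and mogat3b, and those most like f2 were itm2bb (r = 0.997), ahsg1, adra1a, bloc1s6 and pparda. ahsg1 encodes fetuin A, another protein the liver secretes into plasma, sod1 the cytosolic superoxide dismutase, and slc3a2a the heavy chain of amino acid transporters. With so few arrays many genes come close: 176 genes had an r above 0.9 with the fibrinogen mean and 364 with f2.

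The level of some factors also differed between the batches. In the control livers, the batch 2 mean exceeded the batch 1 mean by 1.26 for f7, 0.96 for f9b and 0.90 for f10, and the other 7 genes differed by −0.33 to 0.18. The −0.33 was fga by its brightest cluster, and its other cluster gave 0.43. For f7 the group means were 9.13 ± 0.49 in OF and 8.92 ± 0.07 in control livers of batch 2, above 6.86 ± 1.12 in OF and 7.66 ± 0.04 in control livers of batch 1 (SD, n = 2 each), and within each batch the means lay closer than the SD of the OF livers. The batches also differ in the median signal given above. Their control livers differ in the estrogen-responsive genes too, which averaged 2.88 and 2.84 in batch 1 and 12.56 and 12.62 in batch 2. In the controls that difference and the batch cannot be told apart. None of these differences between the batches was tested.

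Among other clotting factors and cofactors the same directions were common, and some genes passed the thresholds. Below, rose and fell are used only of genes past the methods' thresholds within a batch. Of 12 measured of 17 listed, 9 had a lower mean with OF in batch 1 and a higher one in batch 2. So did 32.2% of all clusters and 37.8% of those above 5. The medians of the 12 genes were −0.72 and 0.55, and 5 of them had a mean below 5. f9a, the other factor IX copy, had 6.31 and 6.91 in OF livers of batch 1, against 7.87 and 8.09 in controls. Its batch 2 signals were 8.37 and 8.97 in OF livers, against 7.15 and 6.88 in controls. It fell by 1.36 with OF in batch 1 (SE 0.28, adjusted p = 0.282) and rose by 1.65 in batch 2 (SE 0.29, adjusted p = 0.243), and its OF change differed between batches by 3.02 (SE 0.43, adjusted p = 0.114, limma).

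In that list 3 genes, f13b and f3b among them, differed in direction from the 10 genes in batch 1. proza, f7l and f13a1b lay on the same sides as the 10 genes, f13a1b at signals below 5 on every array. f13b, the carrier subunit of the fibrin-crosslinking factor XIII, had 7.95 and 8.85 in OF livers of batch 1 against 6.13 and 6.29 in controls, and rose by 2.19, where 3.26% of all clusters passed as higher (SE 0.37, adjusted p = 0.236). The OF livers of batch 2 had 5.05 and 9.40, against 7.51 and 7.17 in controls, the widest gap between replicates in the list, with a change of −0.11 (adjusted p = 0.994). f3b, a tissue factor, rose by 1.36 in batch 1 (SE 0.29, adjusted p = 0.290), at signals below 5 on every array, with 0.17 in batch 2. proza, the other protein Z gene, rose by 1.05 in batch 2 (SE 0.34, adjusted p = 0.451) and had a change of −1.25 in batch 1 (adjusted p = 0.551). f7l, the neighbour of f7, gave −1.01 and 0.85, and f13a1b gave −0.17 and 0.61. None of these had an adjusted p under 0.05, a level that 0.0% of all clusters reached in batch 1 and 0.0101% in batch 2.

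The inhibitors of clotting were measured for 7 of 16 listed genes, of which 5 had a lower mean in batch 1 (median −0.55) and 6 a higher mean in batch 2 (median 0.67). Both conditions were met by 4 of the 7, against 32.2% of all clusters and 37.8% of those above 5. serpina10a, a serpin of the family that works with protein Z, had 5.48 and 5.94 in OF livers of batch 1 against 6.87 and 6.32 in controls. Signals of batch 2 were 7.46 and 2.73 in OF livers against 7.44 and 5.82 in controls. The array with the highest prozb thus had the lowest serpina10a, but OF replicate 1 of batch 1 was the lowest of its batch for both genes. A relation between the 2 genes was not tested. proca, a protein C gene, had 7.62 and 8.58 in OF livers of batch 2 against 6.65 and 6.26 in controls and rose by 1.64 (SE 0.40, adjusted p = 0.320, limma), with a change of 0.03 in batch 1. tfpia, which encodes an inhibitor of tissue factor with factor VII, had changes of 0.55 and 0.91, neither past the thresholds.

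In the fibrinolytic system, which dissolves clots, 8 of 9 measured genes had a lower mean in batch 1 (median −0.35) and 9 of 9 a higher one in batch 2 (median 0.39), and none passed the thresholds. Both conditions were met by 8 of the 9, against 32.2% of all clusters and 37.8% of those above 5. plat, a plasminogen activator, gave −0.95 and 0.39, and plaua, another, gave −0.01 and 0.77, but 3 of the 9 genes had a mean below 5, these 2 among them.

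For the vitamin K cycle and the export of the factors all 9 listed genes were measured. Of them 7 had a lower mean with OF in batch 1, 3 had a higher one in batch 2, and 3 met both conditions, near the 32.2% of all clusters. The medians were −0.12 and −0.18, and none passed the thresholds. vkorc1, the vitamin K epoxide reductase that recycles the vitamin, had 5.57 and 5.95 in OF livers of batch 1 against 7.10 and 6.25 in controls. For batch 2 they were 7.78 and 6.84 in OF livers against 7.38 and 8.10 in controls. Its change over both batches was −0.67 (SE 0.32, adjusted p = 0.954). vkorc1l1 and tpst1 gave −0.39 and −0.22 over both.

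mcfd2 and lman1, picked after their values were seen, encode the receptor that carries factors V and VIII out of the endoplasmic reticulum in mammals. mcfd2 had 7.65 and 7.86 in OF livers of batch 1 against 7.05 and 5.70 in controls. In batch 2 it had 10.56 and 7.59 in OF livers against 10.26 and 10.16 in controls. lman1 in batch 2 had 10.63 and 8.44 in OF livers against 10.54 and 11.03 in controls. In batch 1 lman1 had 8.99 and 8.26 in OF livers against 8.65 and 6.70 in controls. Both genes were lowest of batch 2 on the array where all 10 clotting genes were highest. The estrogen-responsive liver genes averaged 2.84 on that same array. The changes, 1.38 and −1.14 for mcfd2 and 0.95 and −1.25 for lman1, did not pass the thresholds. Any tie of these 2 genes to the clotting gene values was not tested.

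**Figure D5:**
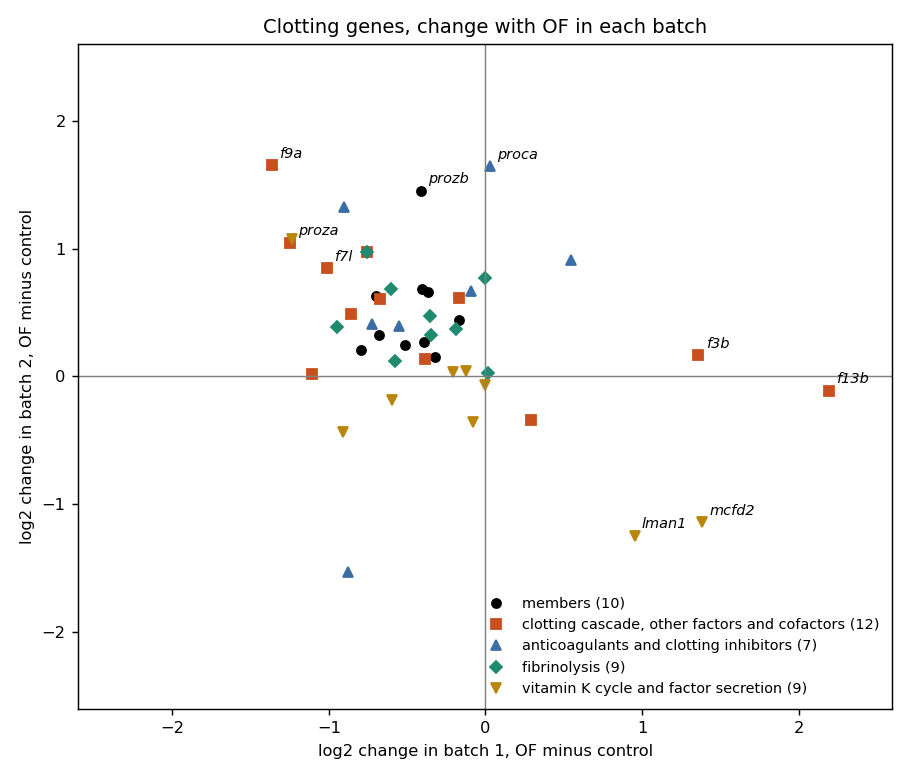
Change with OF in batch 1 (x axis) against that in batch 2 (y axis), both as log2 OF minus control, for the 10 genes (members) and 4 other lists, with symbols by list and selected genes named. The 10 genes and most other cascade, inhibitor and fibrinolysis genes lie in the upper left, f13b and f3b lie to the right, and mcfd2 and lman1 lie in the lower right. A gene in more than 1 list is drawn for each.

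Fibrinogen-like genes, with 6 of 8 measured, and thrombin receptors, with 4 of 6, had no member past the thresholds. fgl1 gave −0.22, fibcd1 −0.41 and fgl2b 0.12 over both batches. The receptors f2rl2, f2rl1.1 and f2r gave 0.34, 0.25 and −0.10. Of these, 4 of the 6 fibrinogen-like genes and all 4 receptors had a mean below 5.

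Among other acute phase proteins, 16 of 20 were measured, and 8 of them had a lower mean in batch 1 and a higher one in batch 2. Of all clusters 32.2% did so. hpx, the heme carrier hemopexin, had 9.25 and 8.57 in OF livers of batch 1 against 11.26 and 10.99 in controls and fell by 2.22 (SE 0.31, adjusted p = 0.211, limma). In batch 2 hpx was on the other side, with 10.55 and 11.85 in OF livers against 10.29 and 9.14 in controls, a change of 1.48 (SE 0.61) short of the thresholds, and its interaction was 3.70 (SE 0.78, adjusted p = 0.150, limma). hamp, the iron-regulating hepcidin, had 3.86 and 4.23 in OF livers of batch 1 against 2.99 and 2.49 in controls, all below 5. It rose there by 1.31 (SE 0.27, adjusted p = 0.288, limma). In batch 2 hamp had 3.84 and 9.37 in OF livers against 5.21 and 3.24 in controls, so that 1 OF liver lay between the controls. Its batch 2 change of 2.38 (SE 1.99) was short of the thresholds. apcs, a pentraxin, had a change of 0.82 over both batches (SE 0.28, adjusted p = 0.954, limma) with OF above control in batch 1, and c3a.1, a complement C3 gene, had 0.17.

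Genes of interleukin-6 signalling and liver transcription factors were measured for 20 of 23 names. jak2a, a kinase of that signalling, had 4.91 and 4.69 in OF livers of batch 1 against 5.34 and 5.69 in controls, and 5.03 and 5.23 in OF livers of batch 2 against 6.03 and 6.00 in controls. OF lay below control in both batches, unlike any of the 10 clotting genes, with a change of −0.80 over both (SE 0.14, adjusted p = 0.954, limma). hnf4a, a nuclear receptor that in mammals binds the promoters of several clotting factor genes, had 6.50 and 6.49 in OF livers of batch 1 against 8.09 and 7.26 in controls. In batch 2 it had 7.28 and 8.15 in OF livers against 8.70 and 8.68 in controls. It was thus below control on every OF array, with changes of −1.18 in batch 1, past the thresholds, −0.97 in batch 2, short of a fold of 2, and −1.08 over both (SE 0.25, adjusted p = 0.954, limma). In batch 2 the means of the 10 clotting genes were higher with OF. Any part of jak2a or hnf4a in the clotting gene values was not tested.

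In the same list cebpd, a transcription factor of the acute phase response, fell by 1.81 in batch 1 (SE 0.21, adjusted p = 0.178), and foxa3, a forkhead factor of the liver, rose there by 1.07 (SE 0.24, adjusted p = 0.298). Their batch 2 changes had the opposite sign, 0.48 for cebpd (interaction 2.28, adjusted p = 0.290) and −0.65 for foxa3 (interaction −1.73, adjusted p = 0.189), and were short of the thresholds. socs3b, a feedback inhibitor of the pathway, and nr1h4, the bile acid receptor, rose in batch 2, by 1.07 (SE 0.33, adjusted p = 0.422) for socs3b and by 1.18 (SE 0.21, adjusted p = 0.242) for nr1h4, with changes of −0.39 and −0.28 in batch 1. stat3, the transcription factor that interleukin-6 activates, had changes of −0.19 and −0.01. None had an adjusted p under 0.05.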

How the data were processed

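Liver RNA was hybridised to 8 ZebGene 1.1 ST arrays. Per the labels and the methods, the authors processed them in Transcriptome Analysis Console with the GCCN and SST steps and deposited log2 signals, 1 per probe cluster. The value table holds 75212 clusters, of which 59384 stand in the deposited worksheets. After removal of 84 control clusters, 59300 were tested. The worksheets' own averages, folds and p-values were not used as results. No source used here gives the genome build of the cluster positions.

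The lmFit and eBayes functions of limma 3.58.1 (R 4.3.3) compared OF with control within each batch, over both with an additive batch effect, and as an interaction. p-values are two-sided, and adjusted ones are Benjamini-Hochberg values over all clusters. Genes were called at an adjusted p under 0.05, and within batches at the methods' thresholds, a fold above 2 and an unadjusted p under 0.05. The scripts were tested on simulated data. Figures were drawn with matplotlib 3.10.9 in Python 3.11.15. Precision is limited by the number of arrays. Members and lists were chosen with earlier results of these data known. Every member is named, and from the other lists the 3 genes with the smallest p over both batches, any past a threshold, and some given after their values were seen (f7l, stat3, mcfd2, lman1, apoa2 and fabp10a). Some genes that this rule names are not reported here. Alternatives were quantile normalization, other filters, cluster choices, variance models and thresholds, and leaving out each array.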

Additional observations from a re-analysis of the deposited data

Results flagged for a closer look

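f2, f7i and fga lay below control on every OF array of batch 1 and above control on every OF array of batch 2. The same held for 6.62% of all clusters, dim ones included. For f2 the lower OF liver of batch 2 had 10.96, against 10.94 in the nearest control. The f7i cluster spans those of f10 and prozb in the deposited annotation. For fga the order held by its brightest cluster only, and by its dimmer cluster the groups of batch 2 overlapped. The difference between the batches in their OF change was 1.00 for f2 (SE 0.37, adjusted p = 0.299), 1.33 for f7i (SE 0.48, adjusted p = 0.291) and 0.61 for fga (SE 0.32, adjusted p = 0.466) by limma's interaction, so none passed after adjustment.

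Among the 4 OF arrays, after the batch means were subtracted, the fgb signal of replicate 2 of batch 2 stood apart, with a gap to the nearest array of 0.93 of the whole range. It was the only such array among 20 groups examined, 10 genes in OF and in control arrays, and the limit used is one that chance passes in about 1 in 20 groups. On that array the estrogen-responsive liver genes averaged 2.84, and their part was not tested.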

How the results depend on the processing

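The settings that kept all arrays were quantile normalization, a filter at a mean signal above 5, every cluster of the value table, an intensity trend, the mean of all clusters of a gene, no batch term, a shared spread and a replicate block. Under them 239 of 240 member changes kept their direction and call. Most of these settings leave the estimate of a change as it is and alter only its p-value. Only quantile normalization and, for fga, the mean of all clusters could turn a direction, so the count is a weak check. The exception to the count was f7i over both batches, −0.04 as reported and 0.049 after quantile normalization. Over both batches 0 members were called under any setting. The replicate numbers did not pair the arrays (deviations correlated at 0.113 in batch 1 and −0.0727 in batch 2), and the replicate block gave 0 calls. For the interaction, the methods' thresholds in place of the adjusted p gave 2 members, f2 and f7i.

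With 1 array left out, 216 of 240 member changes kept direction and call, 19 reversed and 5 crossed a threshold. A lone remaining array of a group was assumed to vary like the others. The members called were 0 to 2 in batch 1, 0 to 2 in batch 2 and 0 for the interaction. Reversals over both batches came within ranges of −0.38 to 0.03 for f2, −0.15 to 0.39 for f5, −0.53 to 0.12 for f7, −0.29 to 0.27 for f7i, −0.18 to 0.46 for f9b, −0.34 to 0.028 for f10, −0.089 to 0.90 for prozb, −0.032 to 0.23 for fga and −0.19 to 0.022 for fgg. In batch 1 the ranges were −0.89 to 0.16 for f9b and −0.90 to 0.068 for prozb. In batch 2 they were −0.14 to 0.56 for f7, −0.088 to 0.58 for f10 and −0.069 to 0.38 for fgb. The causes were not tested.

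Over all clusters, the count past the methods' thresholds was 3988 in batch 1 (3468 to 7470 with 1 array left out, 1953 with dim clusters left out) and 3366 in batch 2 (3461 to 5890, 1816 with dim clusters left out and 5591 with every cluster of the value table). At an adjusted p under 0.05 it was 0 in batch 1 and 6 in batch 2. The interaction gave 3 (1 to 702 with 1 array left out, 22 with dim clusters left out, 7295 at the methods' thresholds), and both batches together gave 0, or 601 at the methods' thresholds. With 2 arrays a group in each batch, differences of the size seen here could not be separated from the spread between arrays.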
